A study of Homo sapiens with 6 samples.

Results

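The 10 glutathione S-transferase genes GSTM1, GSTM2, GSTM3, GSTM4, GSTM5, GSTP1, GSTK1, GSTO1, GSTA4 and MGST1 were examined, out of 34834 genes with a quantified transcript. They were selected on measured values of these data: GSTM1 was listed for its lower counts after DNM3OS knockdown and the other 9 as further members of its family, so the knockdown differences of the 10 genes are given as a description: no p is given for them, and their count past the threshold supports nothing. The libraries came from SKOV3, a human ovarian cancer cell line, transfected with 50 nM of a pool of siRNAs against the long non-coding RNA DNM3OS in 3 samples or with 50 nM of a non-targeting siRNA pool in 3 samples, and harvested at 48 h. The comparison asks which genes differ in level when DNM3OS is depleted. DNM3OS itself was not analysed here, so its depletion was not measured in these libraries.

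Glutathione S-transferases join the thiol of glutathione to electrophilic compounds, among them drugs and products of lipid oxidation, and so prepare them for export. The soluble enzymes fall into classes named by Greek letters (mu for GSTM, pi for GSTP1, omega for GSTO1, alpha for GSTA4), GSTK1 is the kappa enzyme of mitochondria and peroxisomes, and MGST1 sits in membranes. Several of these genes carry antioxidant response elements bound by the transcription factor NRF2, and the family has long been studied in ovarian cancer for the conjugation of chemotherapeutic agents.

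The 5 mu genes form a cluster on chromosome 1 and resemble each other, which limits how reads can be assigned to 1 of them. In the GRCh38 build, GSTM4 lies at chr1:109656099-109665496, GSTM2 at chr1:109668022-109709551, GSTM1 at chr1:109687814-109709039 and GSTM5 at chr1:109711780-109775428, all on the plus strand, and GSTM3 lies at chr1:109733932-109741038 on the minus strand. The annotated GSTM1 gene therefore lies wholly inside the span given to GSTM2. Between the coding sequences of the reference transcripts, GSTM1 was 92.2% identical with GSTM4, 90.7% with GSTM5, 89.9% with GSTM2 and 74.6% with GSTM3. The following 60 coding bases, the stretch most alike over the 5 genes, are shown because they carry no difference by which a read could be placed among GSTM1, GSTM2, GSTM4 and GSTM5, while GSTM3 differs at 8 bases, in capitals.

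GSTM1: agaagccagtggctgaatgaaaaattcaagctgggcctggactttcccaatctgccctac
GSTM2: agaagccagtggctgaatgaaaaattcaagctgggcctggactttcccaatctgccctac
GSTM4: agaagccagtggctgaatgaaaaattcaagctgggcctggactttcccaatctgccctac
GSTM5: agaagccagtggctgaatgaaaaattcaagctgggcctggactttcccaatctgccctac
GSTM3: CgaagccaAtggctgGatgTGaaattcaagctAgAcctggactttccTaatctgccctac

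The program kallisto, with which the authors assigned reads to transcripts, by default compares words of 31 bases. Of the words in the reference transcript of GSTM1 (GSTM1-201), 68.6% also occurred in a transcript of another gene, most often GSTM2. This share was 56.1% for GSTM2-201, 30.9% for GSTM4-203 and 12.9% for GSTM5-201. It was lower in the GSTM2 transcripts that carried most of that gene's counts, 16.8% for GSTM2-208 and 11.8% for GSTM2-210. In the transcript of GSTM3 (GSTM3-202) it was 6.48%, and none of these words came from another mu gene. Outside the cluster the share was 9.71% for GSTO1-202, all with the pseudogene GSTO3P, and 0.14% for GSTP1-202. It was 0% for GSTK1-201, GSTA4-203 and MGST1-205, but these held 0 counts. Of the transcripts that held the counts of these genes, GSTK1-204 had 6.12%, GSTK1-208 8.76% and GSTA4-206 0.54%. MGST1-202 had 5.0% and MGST1-219 1.49%. None of these words came from a mu gene. Words found more than once in the genome made up 10.7% of GSTK1-204, 13.0% of GSTK1-208 and 16.4% of MGST1-202. Their share was larger in the main transcripts of GSTM2, with 29.16% of GSTM2-208, 27.98% of GSTM2-210 and 38.94% of GSTM2-215. In GSTM1-207, which held most GSTM1 counts, it was 41.7%. All these shares are those of the annotated sequences. The quantified versions of the 10 reference transcripts differ from them in length, most in GSTM3-202, GSTP1-202 and GSTO1-202, with 1565, 965 and 972 bases against 4122, 741 and 813.

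Each library held between 1610937 and 1995888 estimated counts, of which 1523156 to 1868461 fell on annotated genes. By these totals, 3 counts corresponded to 1.61 to 1.97 CPM (counts scaled to the size of the library). On the scaled library sizes used for the gene CPM below, 3 counts were 1.40 CPM in knockdown replicate 1 and 2.11 CPM in knockdown replicate 3. At this depth 11814 genes passed edgeR's filter on low counts, and 1 of them, BORCS7-ASMT, a readthrough transcript, passed the threshold of at least a 2-fold difference with an adjusted p below 0.05 (edgeR exact test, Benjamini-Hochberg). The 84 genes for ribosomal proteins took a part of the counts that ranged from 0.217% to 0.537% and was lowest in knockdown replicate 1 and control replicate 2. Of the epithelial markers, KRT8 was abundant (3786 ± 1113 TPM, SD, n = 6) and PAX8 and EPCAM were present at 14.7 ± 3.31 and 19.9 ± 7.94 TPM, while KRT7, WT1 and MUC16 were under the filter. Of the 6 epithelial markers tested, 5 were lower in the knockdown and KRT8 was higher (log2 difference 0.39). The largest falls were those of KRT19 (-0.72), ERBB2 (-0.64) and KRT18 (-0.50). The median log2 difference was -0.32, and 0.03 without knockdown replicate 1. With the ribosomal protein share as a covariate in edgeR's quasi-likelihood fit, chosen after the data were seen, 1 was lower and 5 higher, with a median of 0.35. None of the 6 markers passed the threshold in the exact test, the quasi-likelihood test or DESeq2. These tests gave 0, 0 and 1 of the markers at an unadjusted p under 0.05, where they gave 345, 346 and 192 of all 11814 tested genes. Among markers of other cells, 3 of 6 were under the filter (CD3E, VWF and ALB) and 3 were not: PTPRC of leukocytes reached 51.8 to 82.1 CPM, LYZ 3.42 to 13.5 CPM and PECAM1 16.8 to 28.8 CPM. On the TPM scale used above for the epithelial markers, PTPRC stood at 80.5 ± 11.6, LYZ at 10.4 ± 3.95 and PECAM1 at 9.95 ± 3.14. The mean of PTPRC was thus above those of PAX8 and EPCAM. The log2 differences of these 3 were 0.18, 0.52 and -0.05. Where a level differs in such bulk samples, fewer cells of a type and less RNA per cell cannot be told apart. The labels do not say whether the 3 samples of a group came from separate cultures, so p-values measure the spread between these samples, which may be technical.

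GSTM2 was by far the most abundant of the 10 genes. In TPM, a level corrected for transcript length, it stood at 2008 ± 358 over the 6 libraries, and its lowest value, 1723, was above the highest value of any other member, 61.8 for GSTO1. GSTM2 held 85.5% of the counts of the 10 genes together. Part of the words of its transcripts recur elsewhere in the genome, 29.16% in GSTM2-208 and 38.94% in GSTM2-215. Where the reads with such words arose was not tested. For scale, the mitochondrial glutaredoxin GLRX5 stood at 1872 ± 310 TPM in the same libraries.

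The other members followed without clear steps between them. GSTO1, which also reduces dehydroascorbate, stood at 49.4 ± 13.2 TPM, MGST1 at 41.9 ± 9.72 and GSTP1 at 26.9 ± 18.6. GSTK1 (18.2 ± 7.57 TPM), GSTM3 (16.4 ± 4.95) and GSTM1 (14.7 ± 10.8) were lower, and GSTA4, the alpha enzyme for lipid aldehydes, stood at 5.38 ± 1.90 TPM. No pair of neighbours in this order below GSTM2 had separate ranges: GSTO1 exceeded MGST1 in 4 of 6 libraries, MGST1 exceeded GSTP1 in 4, GSTP1 exceeded GSTK1 in 5, GSTK1 exceeded GSTM3 in 4, and GSTM3 exceeded GSTM1 in 3. At the low end, GSTM4 (1.34 ± 1.32 TPM) and GSTM5 (0.179 ± 0.438 TPM) had means of 1.33 and 0.17 counts per library. Both were under the filter and at or under the level of 3 counts in every library, so no fold is given for them. GSTM4 counted 0, 1 and 0 in the knockdown and 2, 2 and 3 in the controls, and GSTM5 counted 1 in knockdown replicate 1 and 0 elsewhere.

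The 8 members that passed the filter divided into 3 lower and 5 higher in the knockdown, with a median log2 difference of 0.12, where the median of all tested genes was 0.00. None of the 8 passed the threshold. Over all tested genes, 0.00846% were called lower and 0% higher. In 1 of the 8, GSTM1, every knockdown library lay below every control library, as in 3.56% of all tested genes, and in none did every knockdown library lie above, as in 4.42% of all tested genes. GSTM1 was listed for this difference, and it passed the filter through the controls, where it is high. For 6 members the log2 difference was between -0.5 and 0.5.

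**Figure D1:**
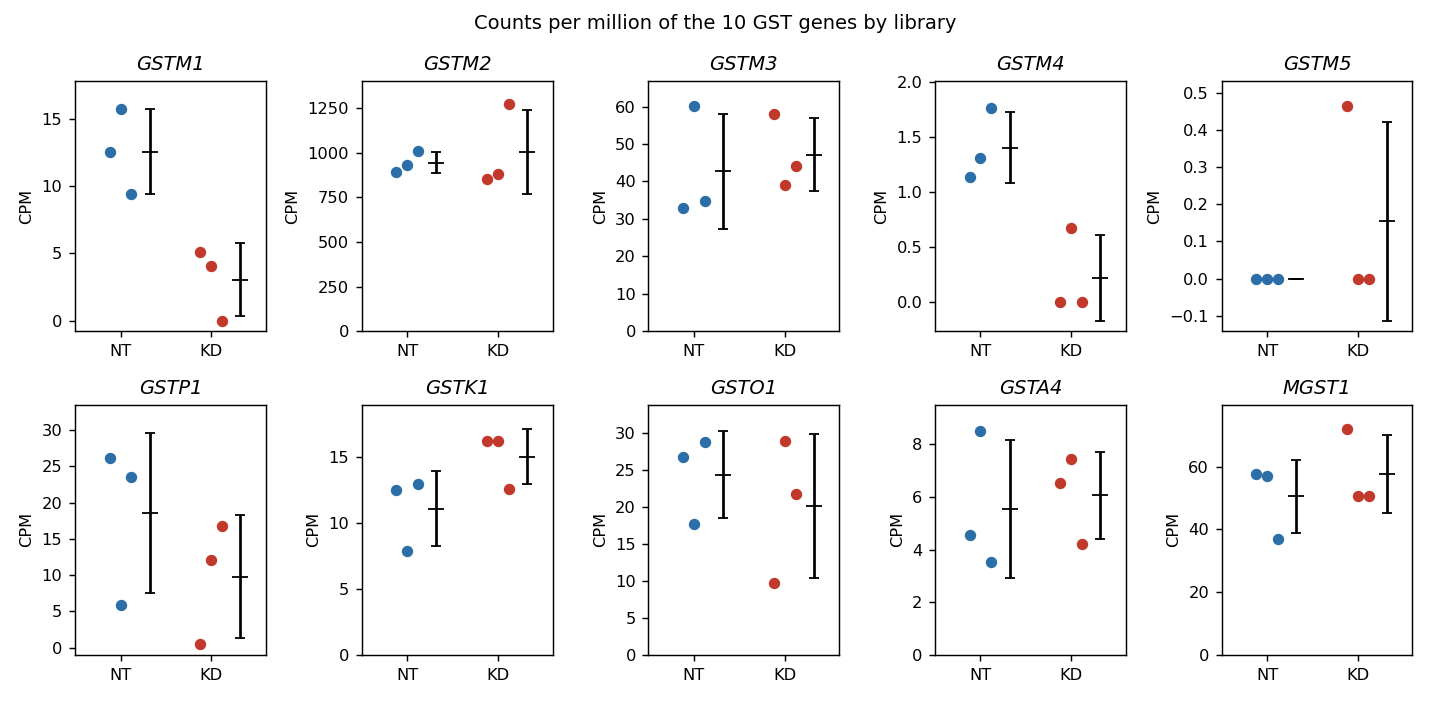
CPM of each of the 10 genes (vertical axes, 1 scale per gene) in the 3 non-targeting libraries (NT, blue) and the 3 DNM3OS knockdown libraries (KD, red); black marks give the mean ± SD. The knockdown points of GSTM1 lie at 0 to 5.12 CPM and its control points at 9.41 to 15.7 CPM, and the points of GSTM2, GSTM3, GSTP1, GSTK1, GSTO1, GSTA4 and MGST1 overlap between groups.

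GSTM1 encodes a mu enzyme that is missing from many human genomes through a common deletion; whether SKOV3 carries the gene was not tested here. It counted 11, 6 and 0 reads in the knockdown libraries and 22, 24 and 16 in the controls, or 5.12, 4.05 and 0 CPM against 12.5, 15.7 and 9.41 CPM. All 3 knockdown libraries were lower than all 3 controls, and the count of 0 in knockdown replicate 3 allows up to 2.11 CPM. The group means were 3.06 ± 2.70 and 12.6 ± 3.15 CPM (SD, n = 3), a log2 difference of -1.93. It was -1.41 without knockdown replicate 3 and -2.55 without knockdown replicate 1. When the 5 mu genes were summed before the fit, the log2 difference of the sum was 0.07; GSTM1 added a mean of 13.0 counts per library to 1610 of GSTM2, so the sum follows GSTM2.

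At the transcript level, the GSTM1 counts were not those of the full-length mRNA. GSTM1-201, the reference transcript (MANE Select), was at 0 in all 6 libraries, and 97.4% of the gene's counts lay on GSTM1-207, a transcript of 903 bases without a defined coding region. Its last exon, at chr1:109708481-109709039, takes up 559 of these bases and is part of 2 transcripts assigned to GSTM2 as well: the coding GSTM2-204, which ends in that exon after a different upstream exon, and GSTM2-215, a single exon of 4321 bases that covers it. All words of this exon recur in GSTM2, and in the whole of GSTM1-207 the share of words found in another gene was 76.9%. The 30 bases across the last junction of each transcript are shown because the first 15 separate them and the shared exon, in capitals, does not.

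GSTM1-207: tacaatccagaatttGAAAAGTGTAATGTT
GSTM2-204: atctcccgatttgagGAAAAGTGTAATGTT

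**Figure D2:**
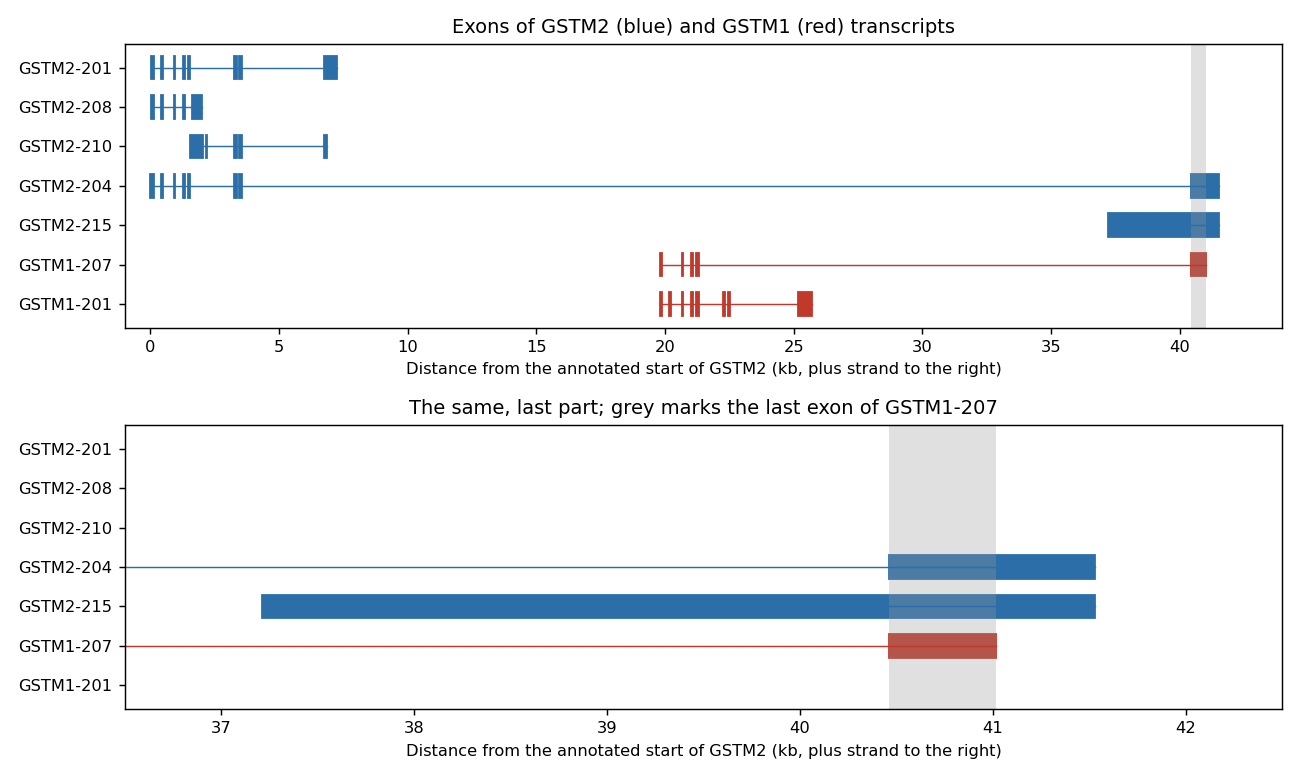
Exons (boxes) of the GSTM2 transcripts (blue) and GSTM1 transcripts (red) that carry most of the counts, with both reference transcripts (GSTM2-201, GSTM1-201), against distance in kb from the annotated start of GSTM2; the lower panel enlarges the last part. The last exon of GSTM1-207 (grey band) lies inside exons of GSTM2-204 and GSTM2-215, well past the end of GSTM1-201.

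Most counts of these 3 transcripts were on the 2 assigned to GSTM2. In the knockdown, GSTM1-207, GSTM2-204 and GSTM2-215 together held 524, 263 and 241 counts, and in the controls 262, 299 and 271. Scaled by library size, the sum was 197 ± 40.9 CPM in the knockdown and 168 ± 24.4 CPM in the controls (SD, n = 3). GSTM1-207 took 1.91%, 2.27% and 0% of the sum in the knockdown and 8.20%, 7.62% and 5.89% in the controls, means of 1.40 ± 1.22% and 7.24 ± 1.20%. This share rests on the same counts for which GSTM1 was listed, and the sum is too large beside them to show a difference of that size. How far reads from the shared exon were divided between the genes by the assignment was not tested.

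**Figure D3:**
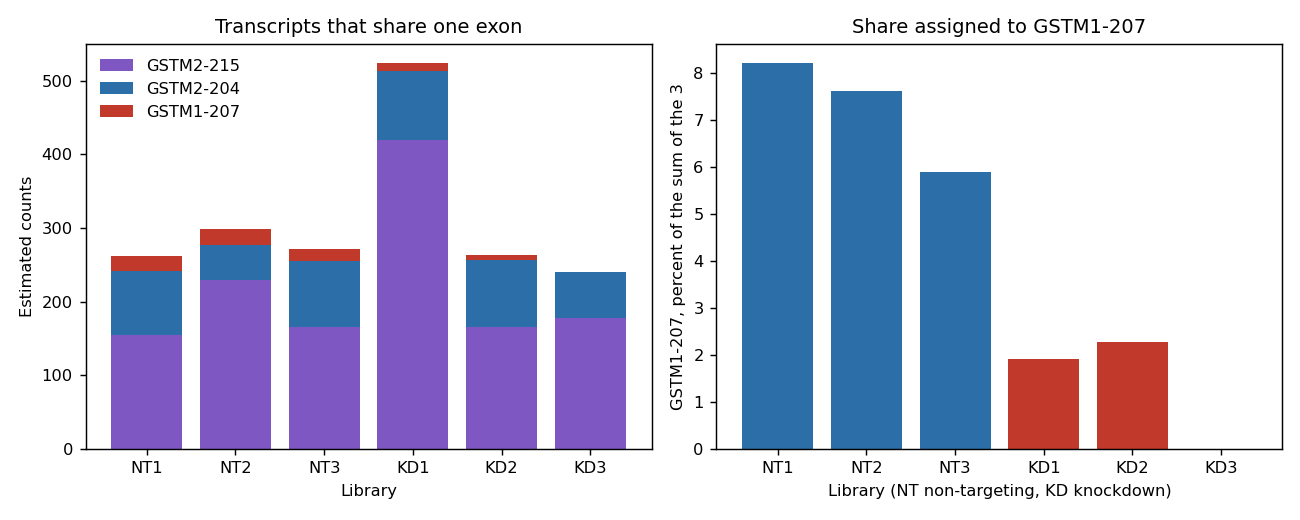
Left, estimated counts of the 3 transcripts that share 1 exon, stacked for each library (NT non-targeting, KD knockdown); right, the percent of that sum assigned to GSTM1-207. GSTM1-207 takes 5.89% to 8.20% in the control libraries and 0% to 2.27% in the knockdown libraries, while the sums lie between 241 and 524 counts.

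GSTM2, a mu enzyme known for conjugating quinones derived from dopamine, counted 1837, 1304 and 1815 in the knockdown and 1571, 1420 and 1714 in the controls. On the CPM scale these were 854, 881 and 1274 against 895, 930 and 1008. The knockdown values spread on both sides of the controls, with group means of 1003 ± 235 and 944 ± 58.1 CPM and a log2 difference of 0.09. The high value was that of knockdown replicate 3, and without it the log2 difference was -0.12; without knockdown replicate 1 it was 0.20.

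The GSTM2 counts too were on other transcripts than the full-length mRNA: GSTM2-201, the MANE Select transcript, was at 0 in all 6 libraries. GSTM2-208, of 709 bases and with no defined coding region, held 66.9%, the retained-intron transcript GSTM2-210 held 14.4%, GSTM2-215 held 13.6% and the coding GSTM2-204 held 4.89%.

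The 4 GSTM2 transcripts did not all vary together over the libraries. GSTM2-208 stood at 455, 634 and 1046 CPM in the knockdown and 712, 579 and 744 CPM in the controls, lowest in knockdown replicate 1 and control replicate 2. GSTM2-215 stood at 199, 117 and 130 CPM against 96.3, 156 and 104 CPM, highest in those 2 libraries. GSTM2-210 stood at 168, 101 and 105 CPM against 119, 194 and 169 CPM. GSTM2-204 stood at 44.6, 64.9 and 46.9 CPM against 53.8, 31.1 and 56.5 CPM. Like GSTM2-208, it was lowest in knockdown replicate 1 and control replicate 2. In none of the 4 did the groups separate, and the log2 differences were in this order 0.07, 0.33, -0.36 and 0.14. Among all 12 tested transcripts of the 10 genes, 4 were lower and 8 higher in the knockdown and 0 passed the threshold, which 0.254% of all 15767 tested transcripts passed in either direction. In 2 of the 12, GSTM1-207 and MGST1-219, every knockdown library lay below every control library, as in 3.8% of all tested transcripts, and in none did every knockdown library lie above, as in 4.23%.

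GSTM3, the mu gene most distant in sequence, was measured almost wholly (99.8%) on the coding transcript GSTM3-201, of 4046 bases. It stood at 58.1, 39.2 and 44.2 CPM in the knockdown and 33.0, 60.2 and 34.7 CPM in the controls. Knockdown replicate 1 and control replicate 2 were the highest, 1 from each group, and the groups overlapped. The log2 difference was 0.16, and leaving out 1 library moved it to between -0.02 (without knockdown replicate 1) and 0.50 (without control replicate 2). An annotated long non-coding RNA without a symbol, ENSG00000241720, has 202 exon bases opposite to GSTM3 exons, as ENSG00000260246 has 402 opposite to GSTM1 exons. Neither was among the transcripts analysed here, and reads of the opposite strand were not separated.

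GSTP1, the pi enzyme and the family member most often studied in drug resistance, is encoded at chr11:67583742-67586656. It was the tested member with the largest share of counts on its MANE Select transcript (GSTP1-202, 75.8%). It counted 1, 18 and 24 in the knockdown and 46, 9 and 40 in the controls, or 0.465, 12.2 and 16.8 CPM against 26.2, 5.89 and 23.5 CPM. The groups overlapped, since control replicate 2 was below knockdown replicates 2 and 3. The means were 9.82 ± 8.43 and 18.5 ± 11 CPM, a log2 difference of -0.94 that was -0.35 without knockdown replicate 1 and -1.60 without knockdown replicate 3.

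The order of GSTP1 over the 6 libraries was the order of their ribosomal protein share. From the lowest, the libraries ran knockdown replicate 1 (0.217% of counts on ribosomal protein genes), control replicate 2 (0.310%), knockdown replicate 2 (0.374%), knockdown replicate 3 (0.388%), control replicate 3 (0.517%) and control replicate 1 (0.537%). With this share as a covariate, the GSTP1 log2 difference was 0.82 in edgeR's quasi-likelihood fit, against -1.01 in the same fit without it; the covariate was chosen after the data were seen. Its part in the result was not tested.

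GSTO1, at chr10:104235356-104267459, stood at 9.77, 29.0 and 21.8 CPM in the knockdown and 26.8, 17.7 and 28.8 CPM in the controls. Its lowest libraries were again knockdown replicate 1 and control replicate 2, and the groups overlapped. The log2 difference was -0.30, with 0.06 without knockdown replicate 1 and -0.67 without knockdown replicate 2. Its counts were spread over 6 of 7 forms, with 89.3% on coding transcripts and 5.15% on the MANE Select form GSTO1-202.

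**Figure D4:**
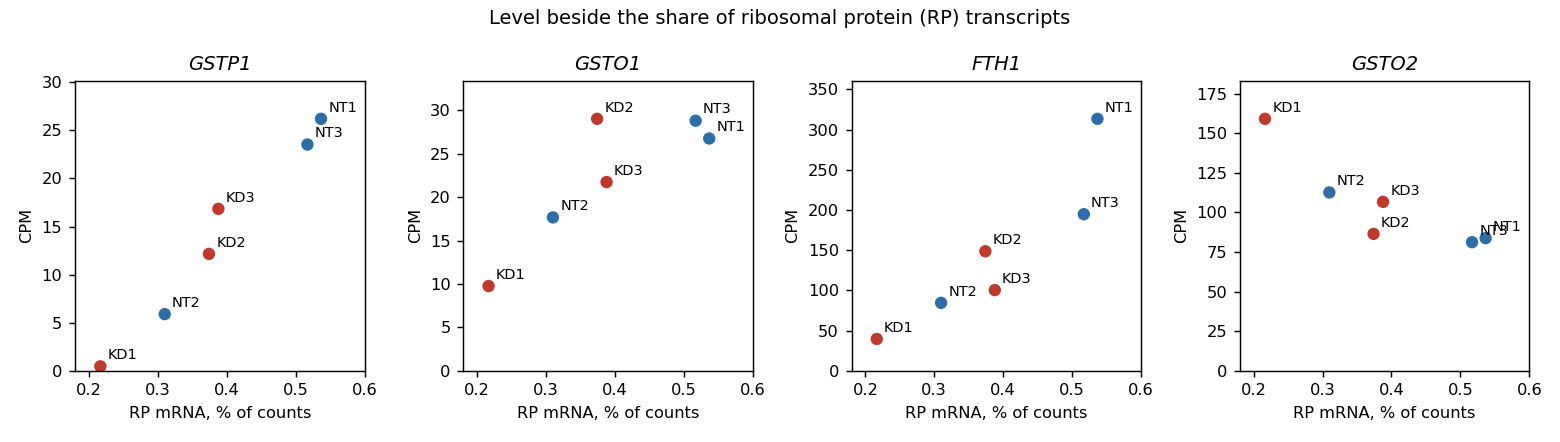
CPM of GSTP1, GSTO1, the ferritin heavy chain gene FTH1 and GSTO2 (vertical axes) against the percent of each library's counts on ribosomal protein (RP) genes (horizontal axis); red, knockdown libraries (KD); blue, non-targeting libraries (NT). GSTP1 runs from 0.465 CPM in KD1 to 26.2 CPM in NT1 in the order of that share, and GSTO2 is highest, at 159 CPM, in KD1.

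GSTK1, at chr7:143244093-143270854, stood at 16.3, 16.2 and 12.6 CPM in the knockdown and 12.5, 7.86 and 12.9 CPM in the controls. Of the 3 knockdown values, 2 exceeded every control and the other lay within their range, and the log2 difference was 0.43. It was 0.26 without control replicate 2, the low control, and 0.20 without both libraries lowest in ribosomal protein share. None of its counts were on the MANE Select transcript GSTK1-201: 43.5% were on GSTK1-204, annotated as a target of nonsense-mediated decay, and 41.9% on retained-intron transcripts. GSTK1-204 alone counted 13.2, 11.9 and 10.9 in the knockdown and 10.8, 10.5 and 0.255 in the controls, and in control replicate 3, where it was near 0, the retained-intron GSTK1-206 held 9.10 counts and in the other 5 libraries 0.

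GSTA4, at chr6:52977948-52995304 on the minus strand, stood at 6.51, 7.43 and 4.21 CPM in the knockdown and 4.56, 8.51 and 3.53 CPM in the controls. The groups overlapped, with a log2 difference of 0.16 that was -0.09 without control replicate 3 and 0.59 without control replicate 2. All its counts lay on GSTA4-206, a transcript without a defined coding region, and the MANE Select GSTA4-203 was at 0.

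MGST1, at chr12:16347142-16609259, stood at 72.1, 50.7 and 50.5 CPM in the knockdown and 57.5, 57.0 and 37.1 CPM in the controls. The highest value was that of knockdown replicate 1, the groups overlapped and the log2 difference was 0.20. It was 0.01 without knockdown replicate 1 or without control replicate 3, and 0.30 without control replicate 2. MGST1-202, a form of 2 exons without a defined coding region, held 75.9% of the counts and the single-exon MGST1-219 held 22.8%. The 2 differed in sign: MGST1-202 stood at 61.6, 43.7 and 41.0 CPM in the knockdown and 43.2, 44 and 23.8 CPM in the controls (log2 difference 0.41), and MGST1-219 at 11.4, 9.17 and 11 CPM against 20.6, 12.9 and 14.4 CPM (log2 difference -0.60). For MGST1-219 every knockdown library lay below every control library.

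Low use of the reference transcript was common in these libraries and frequent among the 10 genes. Of the 8 tested members, 6 had under 1% of their counts on the MANE Select transcript, where 31.1% of 10483 tested genes with such a transcript did. The median share of counts on coding transcripts was 9.43% over the 8 members and 82.2% over all 10612 tested protein-coding genes. For GSTM1, GSTM2, GSTK1, GSTA4 and MGST1 the levels above are therefore mostly levels of transcripts for which no complete enzyme is annotated, and they say nothing of the amount of protein.

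**Figure D5:**
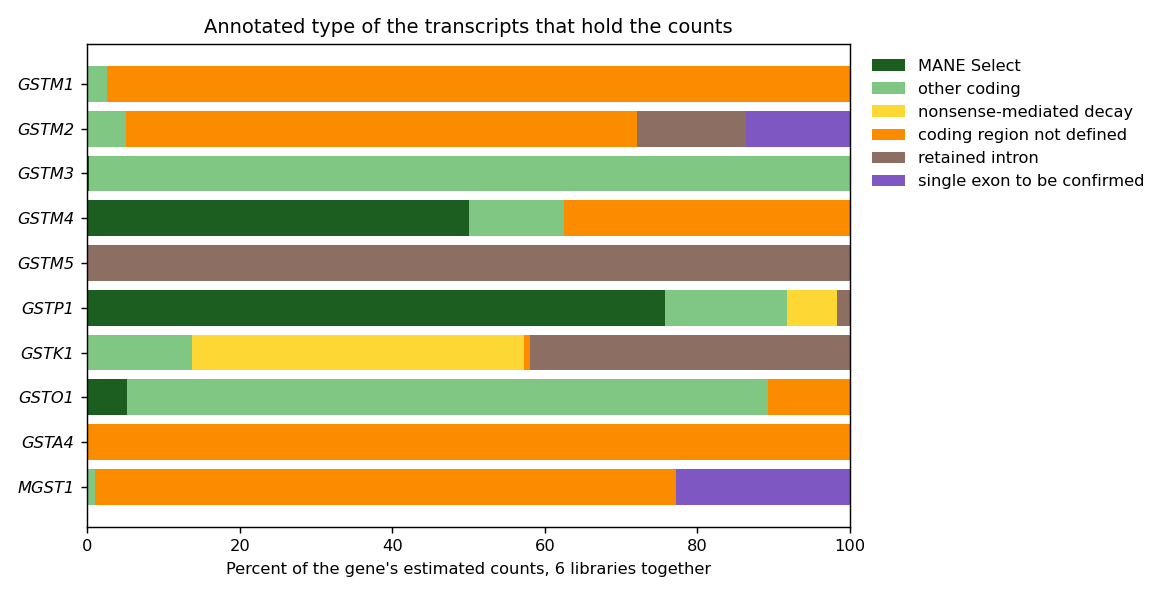
Percent of each gene's estimated counts, over the 6 libraries together (horizontal axis), on transcripts of each annotated type (colours). MANE Select transcripts (dark green) hold 75.8% for GSTP1 and 5.15% for GSTO1 but 0.22% or less for GSTM1, GSTM2, GSTM3, GSTK1, GSTA4 and MGST1; the bars of GSTM4 and GSTM5 rest on means of 1.33 and 0.17 counts per library.

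The promoters of the 10 genes were searched for the core letters of the antioxidant response element, TGACNNNGC on either strand, in the window from 250 bases before to 50 bases after the start. RefSeq lists 12 promoters for the 10 genes, and 6 held the letters, against 13.3% of all 35116 promoters. These were the promoters of GSTM1, GSTM5, GSTA4, GSTO1 and GSTP1 and 1 of 3 of MGST1. The promoters of GSTM2, GSTM3, GSTM4 and GSTK1 did not hold them in this window.

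Other genes of glutathione metabolism were taken as lists by textbook role. In the 5 lists no gene passed the threshold in edgeR's exact test, in the quasi-likelihood test or in DESeq2, and at an unadjusted p under 0.05 the 3 tools gave 1, 0 and 0 genes, against 345, 346 and 192 of all 11814 tested genes. The groups did not separate for any tested gene of these lists. Of all tested genes, every knockdown library lay below every control library in 3.56% and above in 4.42%. With shares this small, the absence is not a result about these lists. For the genes named from these lists in the following, every adjusted p in the fit on all libraries was 1 (edgeR exact test, Benjamini-Hochberg).

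Of 16 further glutathione transferases and related membrane enzymes, 5 were tested and all 5 were higher in the knockdown by the fitted value, with a median log2 difference of 0.26 that was 0.07 without knockdown replicate 1. MGST3, a membrane enzyme, was the most abundant at 127 ± 26.9 TPM and stood at 95.8, 70.2 and 98.2 CPM in the knockdown against 74.6, 74.6 and 72.9 CPM in the controls. The largest difference, 0.35, was that of GSTO2, the second omega enzyme, at 117 ± 37.5 against 92.5 ± 17.5 CPM (SD, n = 3). In GSTO2 the high library was knockdown replicate 1, at 159 CPM, and the other 2 knockdown libraries stood at 86.4 and 107 CPM. GSTCD (0.27) and PTGES, a prostaglandin E synthase (0.25), lay close to it, and both were likewise highest in knockdown replicate 1.

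Of 16 genes of glutathione synthesis and recycling, 9 were tested, of which 8 were lower and 1 higher in the knockdown. The median log2 difference was -0.35, and -0.19 without knockdown replicate 1. With the ribosomal protein share as a covariate in the quasi-likelihood fit, 6 were lower and 3 higher, with a median of -0.04. This covariate was chosen after the data were seen. PGD, an enzyme of the pentose phosphate pathway that supplies NADPH, had the lowest value at -1.0, with 1.86, 12.2 and 9.82 CPM in the knockdown against 22.8, 7.86 and 15.9 CPM in the controls. Like GSTP1, it was lowest in knockdown replicate 1 and control replicate 2. GCLC, the catalytic subunit of the rate-limiting enzyme of glutathione synthesis, stood at 21.1 ± 2.58 against 29.2 ± 7.75 CPM (-0.46), and SLC3A2, a subunit of the cystine transporter, at 28.2 ± 7.66 against 36.6 ± 6.29 CPM (-0.40). In the exact test GGT5, a gamma-glutamyltransferase, was the only one of the 9 above 0, at 0.07.

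Of 12 glutathione peroxidases, glutaredoxins and related enzymes, 8 were tested, 5 lower and 3 higher, with a median log2 difference of -0.09. GLRX5, a glutaredoxin of iron-sulphur cluster assembly, stood at 1002 ± 323 against 1036 ± 76.2 CPM (-0.05). GLRX3 stood at 35.0 ± 7.88 against 32.8 ± 1.38 CPM (0.11). The secreted peroxidase GPX3 had the highest difference, 0.30, and PRDX6, a peroxiredoxin that uses glutathione, the lowest, -0.71.

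Of 27 genes of the NRF2 pathway and its targets, 20 were tested, 16 lower and 4 higher, with a median log2 difference of -0.26. Of all 11814 tested genes, 5837 were lower. With the ribosomal protein share as a covariate in the quasi-likelihood fit, 10 were lower and 10 higher, with a median of -0.003. The tested genes GCLC, GCLM, SLC7A11 and PGD, all lower, are also in the list of synthesis and recycling. NFE2L2, which encodes NRF2, was at 0.18 and CUL3, the scaffold of its ubiquitin ligase, at 0.16. The lowest values were those of the ferritin genes: FTL stood at 0, 31.1 and 14 CPM in the knockdown against 50.1, 18.3 and 33.5 CPM in the controls (-1.19), and FTH1 at 39.5, 149 and 100.3 CPM against 313, 84.5 and 195 CPM (-1.04). Both overlapped between groups, both were lowest in knockdown replicate 1, and the ribosomal protein share moves with them in the same direction as with GSTP1; its part was not tested. Both ferritin genes have processed copies elsewhere in the genome, so their counts are uncertain.

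Of 12 genes of conjugate export and mercapturate formation, 7 were tested, 4 lower and 3 higher, with a median log2 difference of -0.08. ABCC3 and ABCC2, exporters of glutathione conjugates, stood at 49.4 ± 3.05 against 47.6 ± 11.1 CPM (0.06) and at 10.8 ± 6.43 against 11.6 ± 0.796 CPM (-0.08). ABCC1, a further exporter, had the lowest value at -0.62, and KYAT1, which cleaves cysteine conjugates, had the highest at 0.11.

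The genes most like GSTM1 over the 6 libraries, by the root mean square difference of centred log2 CPM, were BORCS7-ASMT (0.353), ZCCHC17 (0.425) and RAB1B (0.434). All 3 were at 0 in knockdown replicate 3, as GSTM1 was. This likeness rests on the values for which GSTM1 was listed, so these genes lend no support to its difference. BORCS7-ASMT stood at 2.79, 4.05 and 0 CPM in the knockdown and at 12, 17.7 and 14.1 CPM in the controls, a log2 difference of -2.59 with an adjusted p of 0.0055 (edgeR exact test, Benjamini-Hochberg). It did not pass the threshold in the quasi-likelihood test, in DESeq2 or in the exact test without control replicate 3. The genes most like GSTM2 were CHGB (0.0622), DEPDC5 (0.0623) and MLLT11 (0.0693), each highest in knockdown replicate 3. MLLT11, for example, stood at 65.1, 77.0 and 100.3 CPM in the knockdown and 71.2, 72.7 and 75.9 CPM in the controls.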

How the data were processed

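RNA sequencing of stranded, ribosomal RNA-depleted libraries was analysed for 3 DNM3OS knockdown and 3 non-targeting samples, grouped by their labels. The authors quantified reads with kallisto 0.43.0 on GRCh38 transcripts and deposited an estimated count, not normalized, and a TPM for each transcript; strand settings are not given in the sources used here. Of 173259 transcripts, 155518 were matched by identifier to GENCODE release 44, and gene totals of the estimated counts were rounded to whole numbers. Genes passing filterByExpr (minimum count 10) entered the exact test of edgeR 4.0.16 in R 4.3.3 after TMM scaling, with Benjamini-Hochberg adjustment; CPM use the scaled library sizes. Alternatives were the quasi-likelihood test, also with a replicate block, DESeq2 1.42.0, RLE scaling, 2 other filters, length-scaled TPM counts, the 5 mu genes summed and each sample left out. After the data were seen, the ribosomal protein share as a covariate, leaving out both libraries lowest in it, and a fit on transcripts were added.

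Words of 31 bases and coding sequences came from GENCODE release 44 transcripts and the GRCh38 genome, and promoters from RefSeq on GRCh38. Transcript lengths equalled those of the files for 82 of 93 transcripts; protein sequences were not used. The 10 genes and the lists were chosen with earlier results of these data known. Named from each list were the genes past the threshold, the 3 of highest TPM and those with the largest rise and fall; also every gene past the threshold, those opposite in strand, and the 3 genes most like GSTM1 and GSTM2; 1 gene so named is not reported here. The script was tested on simulated counts. Floors cover counting error only.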

Additional observations from a re-analysis of the deposited data

Results flagged for a closer look

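Transcripts that could not be placed in the annotation were outside every comparison of the 10 genes, and they held counts in all 6 libraries, up to 6.38% of the counts, in knockdown replicate 1. This value was listed as a signal in data not otherwise used. Whether any of these transcripts belongs to the glutathione transferase family was not tested.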

How the results depend on the processing

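Over all tested genes, 1 gene passed the threshold in the exact test. The number was 0 in the quasi-likelihood test with or without the replicate block, in DESeq2 and with the ribosomal protein share as a covariate. It was 2 with no filter or a filter of 1 CPM in 3 samples, 6 on length-scaled TPM counts and 1 to 3 when each sample was left out in turn. Without control replicate 3 the 1 gene called was higher in the knockdown, so BORCS7-ASMT, a lower gene, did not pass there. Without both libraries lowest in ribosomal protein share, an alternative chosen after the data were seen, 39 of 11975 tested genes passed (31 lower, 8 higher). Among these were 1 of the 10 members, GSTM1 (log2 difference -2.35), and 1 gene of the glutathione lists, FTH1 (-1.01); in every other setting run, including RLE scaling, both counts were 0. The cause was not tested, and the choice of GSTM1 rested on the same samples. GSTM1 was lower in the knockdown in all 16 settings that kept it as its own gene (-2.55 to -1.41) and GSTK1 higher in all 17. All settings reuse the same libraries, and GSTM1 was listed for this difference, so its constant sign supports nothing. GSTM2, GSTM3, GSTP1, GSTO1, GSTA4 and MGST1 were of either sign over the settings; with the ribosomal protein share as a covariate, GSTM3 was at -0.27, GSTP1 at 0.82 and GSTO1 at 0.30. Deviations of same-numbered samples correlated at -0.40, -0.34 and 0.23 over genes. The largest value, 0.53, was that of knockdown replicate 1 with control replicate 2, both lowest in ribosomal protein share. These values cannot show whether same-numbered samples were handled together. Members with few counts (GSTM1, GSTA4, GSTM4, GSTM5) are limited by depth, and the division of mu-gene counts by the sequence they share.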
